A study of Mus musculus with 8 samples.

Results

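The genes described here are nuclear effectors of Notch signalling, and Hes, Hey and feedback genes grouped with them, in the lower first molar of the mouse embryo. They are Rbpj, Maml1, Maml2, Maml3, Hes1, Hes5, Hes6, Hey1, Heyl and Nrarp. They were chosen by symbol, and they are 10 of the 43629 genes in the count tables. All 10 were among the 17129 genes with enough counts to be tested. RNA was sequenced from the molars of 4 Control and 4 Mutant embryos at E18.5, with the left and right lower molars of an embryo pooled into 1 library. Control embryos (J3, J5, J6 and J7) were Jagged1 fl/fl, and Mutant embryos (K14J26, K14J28, K14J29 and K14J30) were K14Cre;Jagged1 fl/fl littermates. By these labels all 8 embryos carried the floxed Jagged1 alleles and the groups differed in the K14Cre transgene, while the study calls its controls WT. The K14 promoter drives Cre in epithelium, so the dental mesenchyme of a Mutant molar keeps its Jagged1 gene. The question was what loss of this Notch ligand from the epithelium does to gene expression in the tooth.

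When a Notch receptor binds a ligand such as Jagged1 on a neighbouring cell, its intracellular domain is cut free and enters the nucleus. There it binds the DNA-binding protein Rbpj, which otherwise holds target genes silent, and recruits a Mastermind-like coactivator of the Maml family. Members of the Hes and Hey families, most of which encode basic helix-loop-helix repressors, are among the best known targets, and Nrarp is a target that feeds back to limit the pathway. In the tooth, Notch1 is known from the stratum intermedium, the epithelial layer next to the enamel-forming ameloblasts.

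Between 17327224 and 29792467 reads were counted on genes per embryo. A count of 3 corresponds to 0.0998 to 0.166 CPM (counts per 1000000 of the library size after TMM scaling). The targeted gene Jag1 had 95.2, 103, 104 and 99.9 CPM in the Control embryos and 34.0, 39.0, 46.0 and 57.1 CPM in K14J26, K14J28, K14J29 and K14J30, so that each group bore out its label. The libraries also differed in the markers of other cell types. The summed level of the 5 enamel genes Amelx, Ambn, Enam, Mmp20 and Klk4 was 557 to 3254 CPM in Control and 3503 to 114369 CPM in Mutant molars, highest in K14J26. The summed level of 8 skeletal muscle markers was 340 and 161 CPM in J6 and J7 and did not exceed 14.7 CPM elsewhere, and 2 of these markers, Myog and Myod1, were at 0 in at least 1 embryo. Of 7 dental epithelium genes, 1 (Krt14) rose in Mutant molars and 0 fell (edgeR adjusted p under 0.05), and 2 had a log2 fold change below 0. Of 7 odontoblast and dental mesenchyme genes, 3 rose, Dspp and Col1a2 among them, and 3 fell (Barx1, Msx1 and Runx2). Of 5 osteoblast and osteoclast genes, 2 rose, Bglap among them, and 0 fell. Over all genes tested, 9.52% were called higher and 6.61% lower. Krt14, Dspp, Col1a2 and Bglap rose by 0.96 to 2.56 on the log2 scale. The osteoclast genes Ctsk and Acp5 were highest in K14J28, at 807 and 454 CPM. The genes named from these lists were chosen after their values were seen, and their part in the results below was not tested. Xist, the RNA of the inactive X chromosome, was at 1930 and 1468 CPM in K14J28 and K14J29 and no higher than 1.09 CPM elsewhere. Because the libraries are whole molars, fewer cells of a type and less RNA per cell cannot be told apart.

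Of the 10 genes, 4 fell in Mutant molars and 0 rose (edgeR's quasi-likelihood test, adjusted p under 0.05). Those that fell were Hes5, Hes6, Nrarp and Maml2. The background over all genes tested was 6.61% called lower and 9.52% called higher. Of the genes with an adjusted p above 0.05, Hey1 and Heyl had an unadjusted p under 0.05 with higher values in Mutant molars, and DESeq2 called 1 of them, Heyl, higher. Over all genes tested, 34.9% had an unadjusted p of 0.05 or less, and DESeq2 called 2244 of 17129 higher. The same 4 genes were those whose Control and Mutant values did not overlap, all lower in Mutant, against a background of 11.6% of genes without overlap and lower and 12.6% without overlap and higher. The criteria of the study combine a p with a fold threshold, and its text names neither the scale of the fold nor whether the p was adjusted. Read here as an absolute log2 fold change of at least 0.5 with an unadjusted p no higher than 0.05, they gave 1 of the 10, Hes5, as lower and 0 as higher, with backgrounds of 5.85% and 8.33% (14.2% in either direction). The study itself lists Hes5, Hes6 and Maml2 as lower and Hey1 as higher in mutant molars. Here the log2 fold changes of Hes6, Maml2 and Hey1 were -0.49, -0.39 and 0.33, so this reading did not return the study's own list. Hes5 passed the count filter through the Control group alone, and with 10 counts required in every embryo the 1 gene past these criteria was Hes6 instead (log2 fold change -0.50). The median log2 fold change of the 10 was -0.08, against 0.01 over all genes tested.

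**Figure D1:**
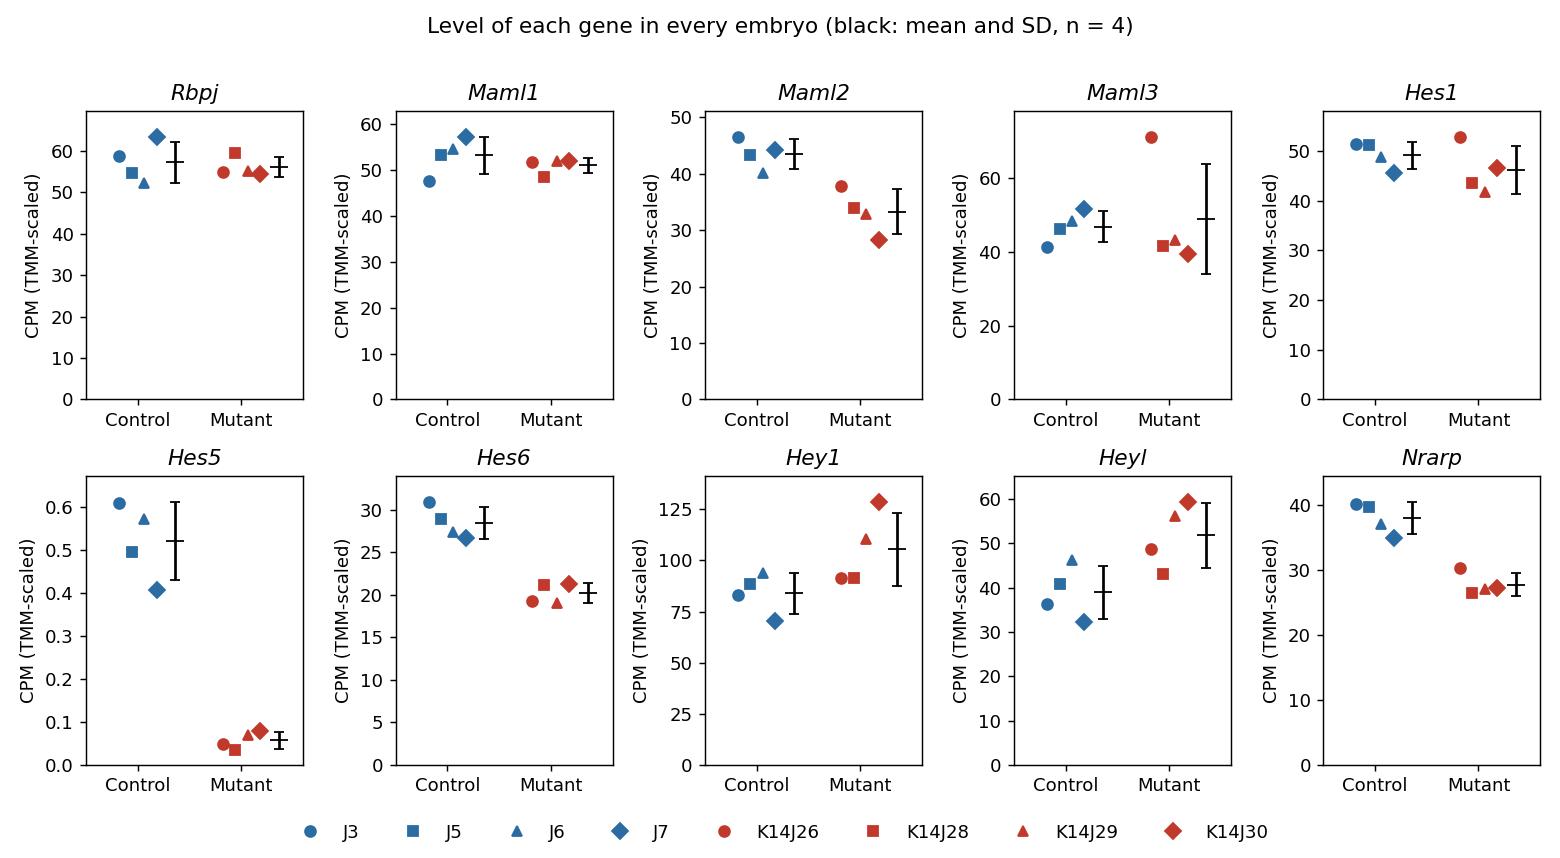
Level of each of the 10 genes in every embryo, in CPM on axes that start at 0, with Control embryos in blue, Mutant embryos in red, and the mean and SD of each group in black. Hes5, Hes6, Nrarp and Maml2 have no overlap between the groups, and the other 6 genes do.

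Rbpj, the DNA-binding factor on which the pathway converges (GRCm38 chromosome 5, 53466152 to 53657362), was at 58.8, 54.6, 52.3 and 63.4 CPM in J3, J5, J6 and J7. Its Mutant values, here and below given for K14J26, K14J28, K14J29 and K14J30 in this order, were 54.9, 59.6, 55.1 and 54.5 CPM, all within the Control range. The log2 fold change was -0.03 with a 95% interval of -0.20 to 0.13 (SE 0.07; edgeR adjusted p = 0.795). A difference of the size seen for Hes6 or Nrarp lies outside that interval.

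Of the Mastermind-like coactivators, Maml2 fell, and Maml1 and Maml3 did not pass the test. Maml2 (chromosome 9 from 13297957 to 13709388) had 46.5, 43.3, 40.2 and 44.1 CPM in the Control embryos and 37.9, 34.0, 32.9 and 28.3 CPM in the Mutant embryos. The lowest Control embryo was above the highest Mutant embryo, and the log2 fold change was -0.39 (SE 0.09; edgeR adjusted p = 0.0273), so that the level fell by 23.6%. This call was the least stable of the 4: with 1 embryo left out it was made in 4 of 8 fits, with an adjusted p of 0.0599 to 0.0795 without J3, J5, J7 or K14J29. Maml1 (chromosome 11 from 50255634 to 50292311) had 53.3 ± 4.01 CPM in Control and 51.0 ± 1.67 CPM in Mutant molars (SD, n = 4), with a log2 fold change of -0.06 and a 95% interval of -0.22 to 0.09 (edgeR adjusted p = 0.552).

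Maml3 (chromosome 3 from 51685907 to 52105076) depended on a single embryo. It had 41.3, 46.1, 48.3 and 51.5 CPM in Control molars and 71.1, 41.6, 43.2 and 39.3 CPM in K14J26, K14J28, K14J29 and K14J30. K14J26 alone stood above every Control embryo. The log2 fold change was 0.06 (SE 0.18; edgeR adjusted p = 0.849) with K14J26 and -0.18 without it (adjusted p = 0.151). K14J26 was also the embryo with the highest enamel gene level, and with the enamel genes as a covariate the log2 fold change of Maml3 was -0.46 (edgeR adjusted p = 0.199).

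Among the Hes genes, Hes5 showed by far the greatest difference. Hes5 (chromosome 4 from 154960923 to 154962371) encodes a repressor that is a direct target of Notch in the nervous system. It was a rare transcript, with 0.609, 0.495, 0.571 and 0.405 CPM in J3, J5, J6 and J7, or 11 to 12 counts in each. In the Mutant embryos it was at 0.0481, 0.0333, 0.0693 and 0.0776 CPM, which is 1 or 2 counts per embryo and below the level of 3 counts in each. In all, 46 counts in Control stood against 6 in Mutant molars, a level 8.87-fold lower after scaling, with an exact 95% interval of 3.78 to 25.4 that covers counting error only. The fitted log2 fold change was -3.06 (SE 0.39; edgeR adjusted p = 0.00557), and it was called in 8 of 8 fits with 1 embryo left out. Hes5 passed the filter on low counts through the Control embryos alone, since no Mutant embryo reached 10 counts, and its place among the genes tested is therefore no support for the difference.

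The sequence before the Hes5 start is shown because it holds the letters that Rbpj is known to bind. The motif TGGGAA was searched on both strands of the 250 bases before each start site of the genes in RefSeq's table (build GRCm38.p6), which had 10 windows for 7 of the 10 genes. The Hes5 window, chr4:154960673-154960922 on the plus strand, reads as follows, with each match in capitals (TTCCCA is TGGGAA on the other strand).

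Hes5: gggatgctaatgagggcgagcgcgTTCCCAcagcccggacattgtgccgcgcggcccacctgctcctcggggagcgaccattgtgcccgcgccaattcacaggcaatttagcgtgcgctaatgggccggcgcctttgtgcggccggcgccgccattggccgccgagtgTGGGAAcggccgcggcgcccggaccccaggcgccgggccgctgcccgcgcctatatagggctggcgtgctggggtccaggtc

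The Hes5 matches lay 226 to 221 and 82 to 77 bases before the start and faced in opposite directions. Of 32851 windows of the same length, 21.6% held at least 1 TGGGAA and 2.77% held at least 2. Both Hes5 matches extended to GTGGGAA, which 5.42% of windows held and 0.161% held at least 2 times. A match is a description of letters and not of binding. The windows of Hes6 and Nrarp are printed for comparison, since both genes fell as Hes5 did. The Hes6 window is the one before the start at the outer end of the gene.

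Hes6: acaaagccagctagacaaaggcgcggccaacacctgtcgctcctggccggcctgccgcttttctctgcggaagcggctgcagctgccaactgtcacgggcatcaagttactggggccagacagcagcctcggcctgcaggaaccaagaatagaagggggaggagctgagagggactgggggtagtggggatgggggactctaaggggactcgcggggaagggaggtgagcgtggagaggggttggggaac

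Nrarp: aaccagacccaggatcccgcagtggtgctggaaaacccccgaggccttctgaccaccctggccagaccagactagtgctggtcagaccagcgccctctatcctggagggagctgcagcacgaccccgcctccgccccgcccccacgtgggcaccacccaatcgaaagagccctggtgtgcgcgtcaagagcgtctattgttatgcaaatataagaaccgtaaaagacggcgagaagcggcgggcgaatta

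Neither the Hes6 window (chr1:91414039-91414288, minus strand) nor the Nrarp window (chr2:25180508-25180757, plus strand) held TGGGAA, and so they have no capitals. This says only that the letters are not in these windows. A second Hes6 window, at an internal start, held none either. Among the other genes, the 2 overlapping Rbpj windows held 2 matches and 1, the Maml3 window held 1, the 2 Maml2 windows held 0 and 1, and the Maml1 window held 0. The boxes that Hes and Hey proteins are known to bind were also searched on both strands. CACNAG, found in 36.7% of all windows, occurred 2 times in the Nrarp window, 1 time in the first Maml2 window and 1 time in the internal Hes6 window. CACGNG, found in 23.5%, occurred as CACGTG in the Nrarp window, 108 to 103 bases before the start, and as CACGGG in the printed Hes6 window, 157 to 152 bases before it. Hes1, Hey1 and Heyl had no window in the table.

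Hes6 (chromosome 1 from 91411483 to 91414038) encodes a Hes family protein that is known to oppose Hes1. It had 30.8, 28.9, 27.4 and 26.6 CPM in the Control embryos and 19.2, 21.2, 19.1 and 21.3 CPM in K14J26, K14J28, K14J29 and K14J30. Both groups were tight, with a coefficient of variation of 6.54% in Control and 5.99% in Mutant. This gave a log2 fold change of -0.49 (SE 0.08; edgeR adjusted p = 0.00977), so that the level fell by 28.9%, and the call held in 8 of 8 fits with 1 embryo left out. It was just short of an absolute log2 fold change of 0.5, by less than its SE.

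Hes1 (chromosome 16 from 30064384 to 30067796), the widely expressed Notch target, did not pass the test. It had 51.4, 51.2, 48.8 and 45.5 CPM in Control molars and 52.9, 43.7, 41.9 and 46.6 CPM in K14J26, K14J28, K14J29 and K14J30. K14J26 was above every Control embryo and K14J28 and K14J29 were below every one. The log2 fold change was -0.09 with a 95% interval of -0.28 to 0.10 (SE 0.08; edgeR adjusted p = 0.475).

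The Hey genes encode repressors related to the Hes proteins and are known from the heart and the vessel wall. Hey1 (chromosome 3 from 8663359 to 8667256) had 83.3, 88.5, 93.7 and 70.4 CPM in Control molars. In the Mutant embryos it was at 91.4, 91.6, 110 and 128 CPM. K14J29 and K14J30 were above every Control embryo, while K14J26 and K14J28 were below J6. Hey1 thus had a log2 fold change of 0.33 with a 95% interval of 0.04 to 0.62 (SE 0.13) that did not pass the test (unadjusted p = 0.0288, edgeR adjusted p = 0.103).

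Heyl (chromosome 4 from 123233556 to 123249875) had 36.2, 40.9, 46.3 and 32.3 CPM in Control molars and 48.7, 43.1, 56.1 and 59.3 CPM in K14J26, K14J28, K14J29 and K14J30. Only K14J28 lay within the Control range. The log2 fold change was 0.41 with a 95% interval of 0.12 to 0.71 (SE 0.13; unadjusted p = 0.0118, edgeR adjusted p = 0.0609). It passed with DESeq2 (adjusted p = 0.0276) and without K14J28 (edgeR adjusted p = 0.0251), and in none of the other 17 alternatives. The third Hey gene, Hey2, had 28.7, 22.9, 15.5 and 20.1 CPM in Control and 5.67, 17.2, 6.90 and 11.1 CPM in Mutant molars, with a log2 fold change of -1.08 (SE 0.33; edgeR adjusted p = 0.0531) that also did not pass.

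Because Hey genes are known from vessels, the markers of vessel cells were read beside them. The summed level of 8 endothelial markers was 385 to 424 CPM in Control and 314 to 376 CPM in Mutant molars, with all 8 log2 fold changes below 0 (49.3% over all genes tested), 1 of them called lower against the background of 6.61% (Tie1, named like the next 2 after its value was seen), and no marker at 0 in any embryo. Among 7 markers of pericytes and smooth muscle, Kcnj8 rose and Pdgfrb fell, and their summed level was 381 to 447 CPM in Control and 353 to 423 CPM in Mutant molars. With the endothelial markers as a covariate, the log2 fold change of Hey1 was 0.05 (edgeR adjusted p = 0.824) and that of Heyl was 0.24 (adjusted p = 0.396). The summed endothelial level did not overlap between the groups, so this covariate cannot be separated from the genotype. Other covariates and genes shifted as well: the enamel genes as a covariate gave 0.22 for Heyl (edgeR adjusted p = 0.525) and 0.30 for Hey1 (0.396), and the endothelial markers moved Maml2 to -0.22.

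Nrarp (chromosome 2 from 25180758 to 25183339), the ankyrin repeat protein that binds the Notch intracellular domain and limits signalling, had 40.2, 39.7, 37.0 and 35.0 CPM in Control molars. In the Mutant embryos it was at 30.3, 26.5, 27.0 and 27.2 CPM, and the groups did not overlap. This gave a log2 fold change of -0.45 (SE 0.07; edgeR adjusted p = 0.0104), so that the level fell by 26.9%, and it was called in 8 of 8 fits with 1 embryo left out and in 17 of all 19 alternatives. An antisense gene, Gm38287, shares 2051 of the 2582 exon bases of Nrarp, and without strand the reads of the pair cannot be told apart. Gm38287 was counted at 1.33, 2.23, 1.66 and 1.49 CPM in Control and 0.769, 0.699, 0.728 and 1.13 CPM in Mutant molars, which is small beside Nrarp. It fell as well (log2 fold change -1.01, SE 0.25; edgeR adjusted p = 0.0294). How reads on the shared bases were assigned is not given. If they were left out, both counts rest on the other bases, and the level of Nrarp per kb below would be too low.

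**Figure D2:**
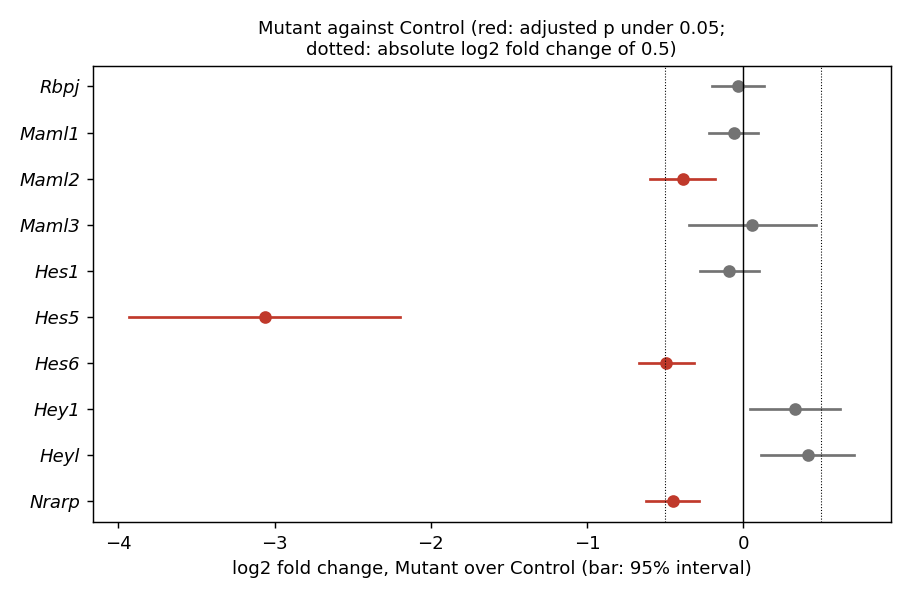
Log2 fold change of Mutant over Control for each of the 10 genes with its 95% interval from edgeR's quasi-likelihood test, in red where the adjusted p is under 0.05, with dotted lines at an absolute value of 0.5. Hes5 lies at -3.06, Hes6, Nrarp and Maml2 between -0.49 and -0.39, and the intervals of Hey1 and Heyl lie above 0 while their adjusted p values are 0.103 and 0.0609.

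The 4 calls changed to different degrees when other differences among the embryos were fitted or left out. Without J6 and J7, the embryos with muscle transcripts, 0 of the 10 genes were called, with log2 fold changes of -3.16, -0.56, -0.53 and -0.43 for Hes5, Hes6, Nrarp and Maml2. Only 7 genes in all were called in that fit of 2 against 4 embryos. Without K14J28 and K14J29, the embryos with high Xist, Hes5, Hes6 and Nrarp were called (edgeR adjusted p = 0.0282, 0.0316 and 0.0382) and Maml2 was not (0.0761). With the mean log2 CPM of the 5 enamel genes as a covariate, the call was kept by Nrarp (log2 fold change -0.56, edgeR adjusted p = 0.0338) and not by Hes5 (-3.29, 0.0550), Hes6 (-0.38, 0.0960) or Maml2 (-0.47, 0.0969). With the endothelial markers as a covariate, Hes5 and Hes6 were called (edgeR adjusted p = 0.0393 for both), and Nrarp (-0.46, 0.0509) and Maml2 (-0.22, 0.232) were not. With the muscle markers, Hes5 (0.0380) and Nrarp (0.0384) were called, and Hes6 (-0.54, 0.0506) and Maml2 (-0.47, 0.0668) were not. With Xist as a covariate, Maml2 alone lost its call (-0.39, edgeR adjusted p = 0.0687). Calls fell over all genes in these fits, from 1133 called lower to 112 with the enamel genes, 47 with the muscle markers, 286 with the endothelial markers and 801 with Xist. The summed enamel level (557 to 3254 CPM in Control, 3503 to 114369 CPM in Mutant) did not overlap between the groups. Nor did the summed endothelial level. These 2 covariates therefore run with the group itself, and a call lost or kept with them cannot separate the covariate from the genotype.

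**Figure D3:**
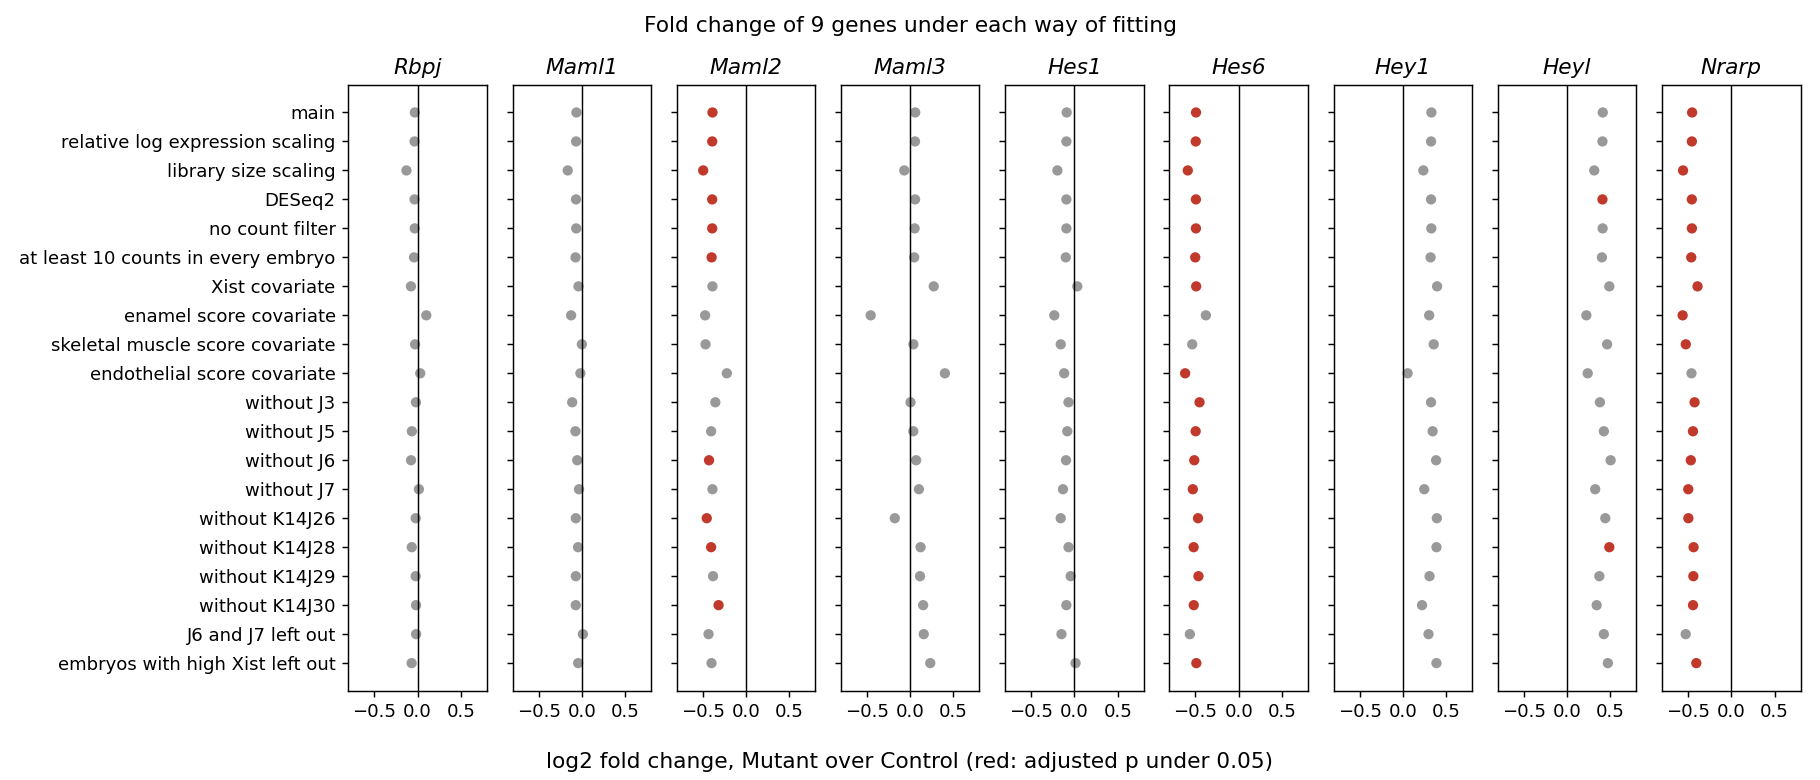
Log2 fold change of Mutant over Control for 9 of the 10 genes (Hes5 is off this scale, between -3.50 and -2.85) in the main fit and in each alternative, in red where the adjusted p is under 0.05. Hes6, Nrarp and Maml2 lie below 0 and Hey1 and Heyl above 0 in every fit shown, while Rbpj, Maml1, Maml3 and Hes1 fall on both sides of 0.

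Levels were compared between genes per kb of exon, since a longer transcript gives more reads. In Control molars Hey1 (25.7 ± 3.06 CPM per kb, SD, n = 4) and Hes1 (24.2 ± 1.34) led and overlapped. Hes6 (15.7 ± 1.03) and Nrarp (14.7 ± 0.945) followed and overlapped each other, then Maml1 (9.63 ± 0.726), Heyl (7.62 ± 1.18) and Maml2 (6.59 ± 0.398), of which neighbours overlapped, then Rbpj (4.49 ± 0.384) and Maml3 (4.46 ± 0.410), which overlapped. Hes5 came last at 0.382 ± 0.0660 CPM per kb, with Maml3 11.7-fold above it and no overlap. In these whole-molar libraries the RNAs of Hey1 and Hes1 were thus more abundant per length than those of Rbpj and the Maml genes. Whether these RNAs lie in the same cells was not tested.

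In Mutant molars Hey1 (32.3 ± 5.43 CPM per kb) stood apart from Hes1 (22.7 ± 2.37) without overlap. Hes6 (11.2 ± 0.669), Nrarp (10.7 ± 0.668), Heyl (10.1 ± 1.43) and Maml1 (9.23 ± 0.302) followed, each overlapping the next. Heyl thus came before Maml1, in the reverse of the Control order. Maml2 (5.04 ± 0.595), Maml3 (4.65 ± 1.43) and Rbpj (4.40 ± 0.188) overlapped one another in turn, and Hes5 was at 0.0419 ± 0.0148. The place of Rbpj depends on the length used: per kb of its longest transcript, 5485 bases against 12750 bases of exon in all its isoforms, it had 10.4 CPM per kb in Control molars and came before Maml1 in the order. In Mutant molars that length also put Heyl (11.4) before Nrarp (10.7), Rbpj (10.2) before Maml1 (9.23) and Maml3 (5.89) before Maml2 (5.20).

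**Figure D4:**
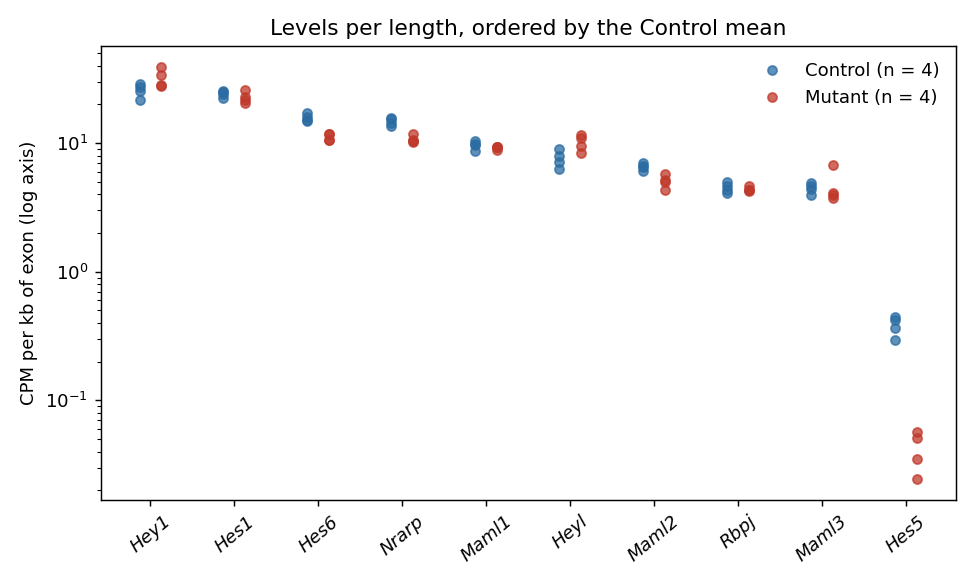
Level of each gene in CPM per kb of exon on a log axis, with 1 point per embryo, Control in blue and Mutant in red, ordered by the Control mean. Hey1 and Hes1 lead in both groups, and Hes5 lies below the other genes in every embryo, with a Control mean 11.7-fold below that of Maml3.

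The same levels can be read as the make-up of the 5 Hes and Hey genes. Hey1 took 34.9 ± 1.80% of their summed level per kb in Control and 42.1 ± 3.77% in Mutant molars (SD, n = 4), with ranges of 33.0% to 37.1% and 37.8% to 45.9%. Heyl took 9.40% to 11.7% in Control and 12.1% to 14.5% in Mutant molars, and Hes6 19.6% to 22.6% and 13.8% to 16.8%. Hes1 took 32.9 ± 1.40% and 29.9 ± 3.87% with overlap, and Hes5 0.516 ± 0.0633% and 0.0540 ± 0.0155%. Shares sum to a fixed total, so they describe the mixture and carry no test of their own. A lower share of Hes6 raises the shares of the others. The CPM values of Hey1 and Heyl themselves overlapped between the groups and did not pass the test (edgeR adjusted p = 0.103 and 0.0609).

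The Mutant embryos also differed among themselves in Jag1, and K14J30, the embryo with the most Jag1 left at 57.1 CPM, had the highest Mutant values of Hes6, Hey1 and Heyl and the lowest of Rbpj, Maml2 and Maml3. K14J30 also had the highest Mutant value of Hes5, 0.0776 CPM, which is 2 counts, as many as in K14J29. K14J26, with the least Jag1 at 34.0 CPM, had the highest Mutant values of Maml2, Maml3, Hes1 and Nrarp and the lowest of Hey1. These are descriptions of 4 embryos, with no test.

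The genes that act with these effectors were read from lists. Of 21 partners of Rbpj, which include the corepressors that keep targets silent and the acetyltransferases that open them, 1 rose, 2 fell and 18 did not pass, near the background of 9.52% called higher and 6.61% called lower, with a median log2 fold change of 0.01. Kmt2d, a histone methyltransferase, rose by 0.41 (SE 0.12; edgeR adjusted p = 0.0437). Kat2a, an acetyltransferase, fell by 0.30 (SE 0.07; adjusted p = 0.0273), and the corepressor Ctbp1 fell by 0.23 (SE 0.06; adjusted p = 0.0330). The 6 Groucho/TLE genes are a family that includes corepressors known to act with Hes proteins. Of them, Tle4 rose from 71.3 ± 3.43 to 95.7 ± 13.4 CPM (log2 fold change 0.43, SE 0.10, edgeR adjusted p = 0.0242). Tle1 fell from 63.8 ± 7.84 to 39.2 ± 10.3 CPM (-0.70, SE 0.17, edgeR adjusted p = 0.0293), although the Tle1 values of K14J28 and J6 overlapped.

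Of the other 7 genes of the Hes, Hey and Bhlhe families, 4 were expressed highly enough to be tested and Bhlhe40 fell (48.7 ± 1.29 to 38.9 ± 3.08 CPM, log2 fold change -0.33, edgeR adjusted p = 0.0195). Hes2 and Hes3 had at most 2 counts in any embryo, Helt was not tested either, and Hes7 had 6 to 23 counts. The proneural genes that Hes proteins are known to repress in the nervous system, such as Atoh1 and the Neurog genes, were read with their partners, and Atoh1 and the Neurog genes were too low to test. The 8 genes of that list that passed the filter, the E proteins Tcf3, Tcf4 and Tcf12, the Id genes and Ascl5, all had a log2 fold change below 0, against 49.3% of all genes tested. Of them 4 fell, against the background of 6.61%: Id3 by 0.36, Tcf12 by 0.34, Tcf3 by 0.31 and Tcf4, named after its value was seen, by 0.27 (edgeR adjusted p = 0.0273, 0.0207, 0.0205 and 0.0138).

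Upstream of the nucleus, 30 of 31 ligands, receptors and processing genes were tested, of which 2 rose and 4 fell (background 9.52% and 6.61%), with a median log2 fold change of 0.05. Besides Jag1 itself (-1.19, SE 0.14; edgeR adjusted p = 0.00517), the fringe Lfng fell from 86.4 ± 5.44 to 41.0 ± 6.97 CPM (-1.08, SE 0.12; adjusted p = 0.00485), and the ligase gene Dtx1 from 2.45 ± 0.287 to 1.44 ± 0.0621 CPM (-0.77, SE 0.16; adjusted p = 0.0192). The others, named after their values were seen, were Aph1b, which fell, and Itch and Numb, which rose. None of the 4 receptor genes passed the test, with log2 fold changes of -0.12 to 0.09. Of 12 genes known as Notch targets in other tissues, 10 were tested, and 1 rose and 2 fell, against the same background shares: the cell cycle inhibitor Cdkn1a rose (log2 fold change 1.36, SE 0.32; adjusted p = 0.0247), and Snai2 (-0.54, SE 0.13; adjusted p = 0.0268) and Ccnd3 (-0.28, SE 0.08; adjusted p = 0.0380) fell. Cdkn1a was highest in K14J26, at 942 CPM, which also had the highest enamel gene level, and the part of that in Cdkn1a was not tested.

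**Figure D5:**
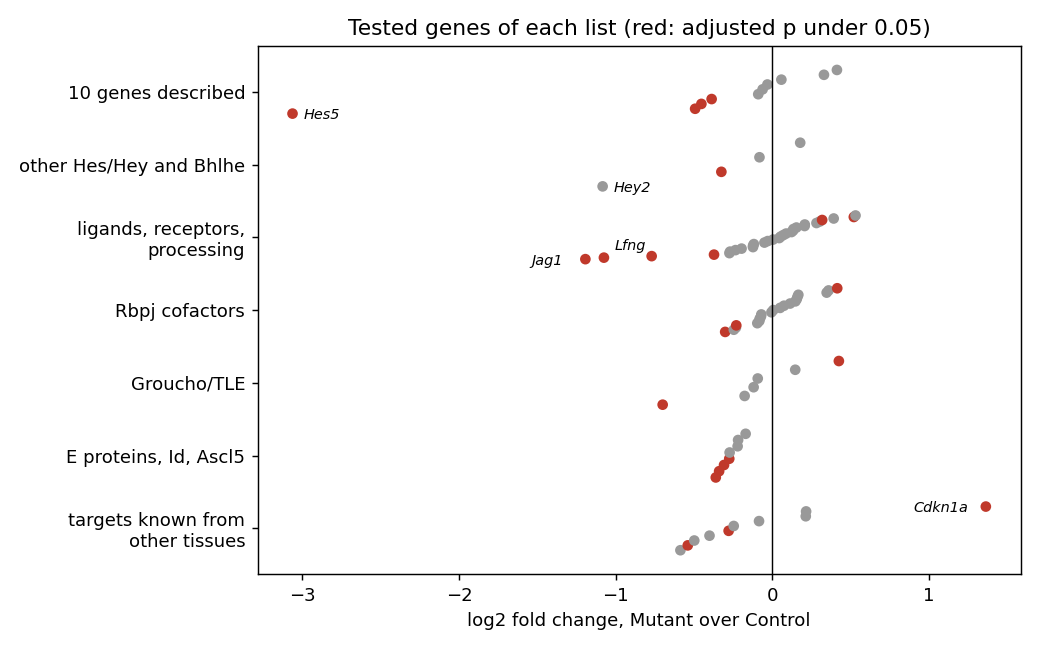
Log2 fold change of Mutant over Control for the 10 genes and for every tested gene of 6 related lists, 1 point per gene, in red where the adjusted p is under 0.05 and with names where the absolute value is above 0.9. Hes5 is the lowest at -3.06, and all 8 tested genes of the E protein, Id and Ascl5 row lie below 0.

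Finally, for each of the 4 genes that fell, the genes with the most similar profile were sought among 11911 genes with at least 5 CPM. The measure was the root mean square difference in log2 CPM over the 8 embryos, after centring each gene on its mean. For Hes5 the nearest were Rspo2 (0.417), Ccn1 (0.438) and Jag1 (0.489), which is a loose likeness, since Hes5 itself varied by 1.08 on this measure. For Hes6 they were Skida1 (0.0299), Ube2e3 (0.0412) and Tpgs2 (0.0496), and for Nrarp they were Hnrnpdl (0.0605), Chrac1 (0.0652) and Slc35e4 (0.0668). Slc35e4 was also the nearest gene to Maml2 (0.0495), before Ier5l (0.0650) and Tspan5 (0.0719). The 4 genes were taken because they fell, so a near profile is bound to share much of the step between the groups. The log2 fold changes of the genes found ran from -1.79 (Rspo2) to -0.36 (Hnrnpdl), and shared regulation was not tested.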

How the data were processed

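RNA was sequenced from the pooled lower molars of 8 embryos. The labels name Trizol for RNA extraction and the series' design text a column kit. The authors aligned the reads with STAR to GRCm38 (GRCm38.p3 in the submitters' processing notes) and deposited raw read counts per gene for each embryo. The processing notes name featureCounts and the study's methods GenomicRanges as the counter. The use of strand and of reads with several matches is not given in the sources used here.

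Identifiers were matched to GENCODE M21 on GRCm38 (42548 of 43629). Genes were tested if they reached 10 counts in 2 or more of the 4 embryos of a group (17129). They were scaled by TMM and tested with edgeR 4.0.16 (quasi-likelihood, two-sided, no covariates, R 4.3.3), with Benjamini-Hochberg adjustment over all of them. An SE was taken as the size of the log2 fold change over the root of F. Log2 CPM profiles used a prior count of 2. Totals ran from 17327224 to 29792467 counts, and precision is limited by 4 embryos per group and, for genes with few counts such as Hes5, by counting error. Libraries of a group were checked for duplicates, and none of the 12 pairs matched within counting noise. The procedure was tested on simulated data.

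The genes and lists were chosen with earlier results of these data known. The text names all 10 genes, up to 3 called genes per pathway list by absolute log2 fold change, Jag1, Hey2, and the 3 genes most alike to each called gene, and says where others were named after their values were seen. Alternatives were other scalings, DESeq2 1.42.0, other count filters, covariates (Xist, enamel, skeletal muscle and endothelial scores, each a mean log2 CPM), leaving out each embryo, and, added after the data were seen, leaving out J6 and J7 or K14J28 and K14J29. Sex and litter were not used.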

Additional observations from a re-analysis of the deposited data

Results flagged for a closer look

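In groups of 4 embryos, a value was looked at again where its gap to the nearest other embryo, as a share of the range of the group, was above the 95% critical value of Dixon's test, which chance alone gives in about 1 of 20 groups. This was met by 7 of 52 groups over 26 genes. Among the nuclear effectors, Maml3 in K14J26 (71.1 CPM against 39.3 to 43.2 in the other Mutant embryos) had a gap of 0.876 of the range, and its log2 fold change was 0.06 with and -0.18 without that embryo. Rbpj in K14J28 was high (59.6 against 54.5 to 55.1 CPM, gap 0.879) and Maml1 in K14J28 was low (48.5 against 51.8 to 52.0 CPM, gap 0.948), and neither changed a call when K14J28 was left out. Kmt2d in K14J26 (133 against 92.3 to 98.3 CPM, gap 0.855), Snai2 in K14J26 (87.3 against 58.4 to 63.0 CPM, gap 0.844) and Tcf12 in K14J28 (259 against 215 to 220 CPM, gap 0.892) were high among the Mutant embryos. Lfng in J6 was low among the Control embryos (78.3 against 88.5 to 89.5 CPM, gap 0.908). K14J26 was the embryo with the highest enamel gene level, and the causes were not tested.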

How the results depend on the processing

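Hes5, Hes6, Nrarp and Maml2 had a log2 fold change below 0, and Hey1 and Heyl one above 0, in every alternative that gave a value. Hes5 was called in 16 of 18 alternatives, Hes6 in 16, Nrarp in 17 and Maml2 in 9 of 19. The count of genes called lower (4) became 1 with the enamel score, 2 with the muscle score, 2 with the endothelial score and 0 without J6 and J7, a fit with fewer embryos, and it was 3 to 4 with 1 embryo left out. Over all genes, 1133 were called lower in the reported fit, against 112, 47, 286 and 4 in these fits. The count called higher (0) was 1 with DESeq2 and 0 to 1 with 1 embryo left out. By the criteria of the study, with its fold threshold read on the log2 scale, 1 gene was lower (Hes5, or Hes6 with 10 counts required in every embryo), against 3 with library size scaling, which moves the median of all genes to -0.09, 2 with the enamel score, 3 with the muscle score, 2 with the endothelial score, 3 without J6 and J7 and 1 to 2 with 1 embryo left out. The count higher by these criteria (0) was 0 to 1 with 1 embryo left out. The cause of these changes was not tested. Directions turned only for genes not called: Rbpj (0.10 with the enamel score, 0.031 with the endothelial score, -0.076 to 0.015 with 1 embryo left out), Maml1 (0.0013 with the muscle score, 0.013 without J6 and J7), Maml3 (-0.069 with library size scaling, still above the shifted median of all genes, -0.46 with the enamel score, -0.18 to 0.15 with 1 embryo left out) and Hes1 (0.033 with Xist, 0.013 without K14J28 and K14J29). Hey1 stood 67.4-fold above Hes5 per kb of exon in Control molars and 84.8-fold per kb of the longest transcript. Hes5 could not be fitted with at least 10 counts required in every embryo, and at 1 or 2 counts per Mutant embryo its fold is bounded by depth. No paired analysis was possible because the groups share no embryo numbers and the labels do not say which embryos shared a litter.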
